A study of Gallus gallus with 24 samples.

Results

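The Pat clones are 1983 spotted clones of a chicken array whose identifiers begin with Pat and a dot, a low line or a hyphen. They make up 1983 of the 15769 rows of the deposited table, and of the 15609 that are not control spots. The identifiers give a plate number, a row letter and a column number, as in Pat_4A2 (plate 4, row A, column 2). The clones came from 21 plates: 13 plates written as Pat_ (1248 clones) and 8 plates written as Pat- (735 clones). Members were taken by identifier alone, so no measured value decided which clones belong. Earlier results of these data were known when the library was taken up. None of the 1983 identifiers was found in the reference gene table, so the clones are described by identifier, and no gene, cell type or sequence is given for any of them.

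The arrays carried RNA from spleen or cecum of chicks of 3 lines, named Leghorn (G-B1), Fayoumi and Broiler in the labels. On each array, 1 channel held RNA of 3 birds challenged with SE at day 1, an abbreviation the labels do not expand, and the other held RNA of 3 birds of day 1 without challenge. Tissue was taken 2 h or 16 h after challenge, which gives 12 groups of line, tissue and time with 2 arrays each, 1 of them titled a replicate. For Broiler cecum at 16 h the replicate column held no ratios and was left out, so 23 arrays were used and that group had 1 array. In full, the groups were Leghorn spleen, Fayoumi spleen, Broiler spleen, Leghorn cecum, Fayoumi cecum and Broiler cecum, each at 2 h and at 16 h. Each array is thus a ratio of 2 pools of birds, and the labels leave unsaid whether a replicate array repeated these pools, exchanged their dyes or took further birds. P-values measure only the spread between these arrays, which may be technical. Each probe had 1 estimate of that spread, taken over all groups together, so a p-value does not rest on its own pair of arrays alone. Marker genes of spleen or cecum could not be read, since probes carry no gene names.

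Spotted arrays of this kind carry amplified inserts of cDNA clones, printed on glass by pins that pick up liquid from source plates. Clones of 1 library come from 1 pool of cDNA, so a library holds a selection of the transcripts of the tissue or cells it was made from, and abundant transcripts can be present several times. The file does not say what tissue or cells the Pat library was made from. Spleen is the main secondary lymphoid organ that filters blood in birds. The ceca are a pair of blind pouches of the hindgut, with a dense bacterial flora and lymphoid tissue at their neck. In both tissues a change in the mix of cells and a change in RNA per cell cannot be told apart from pooled RNA.

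Values are log2 ratios of the 2 channels, centred on each array by subtracting the median of the 15609 probes that are not control spots. A centred ratio of 0 is therefore that of the median probe, not equal RNA in the 2 pools. The deposited medians that were removed ran from -2.05 to 1.27. The direction of the ratios is not settled, and the labels name no dyes. Over all probes, the correlation of the first and replicate arrays was most negative in 5 groups. It was -0.40 (Leghorn spleen 2 h), -0.51 (Fayoumi spleen 2 h), -0.59 (Broiler spleen 2 h), -0.65 (Fayoumi spleen 16 h) and -0.31 (Leghorn cecum 16 h). Broiler spleen at 16 h was weakly negative, at -0.14. The remaining pairs ran from 0.08 (Leghorn spleen 16 h) to 0.54 (Fayoumi cecum 16 h). Signs are those of the deposited values, and no positive ratio is read as more RNA in challenged birds. Medians, counts of calls and counts of signs are also given with the sign of every replicate array turned, where stated. Spleen arrays have slide numbers from 40 to 53 and cecum arrays from 1735 to 1789, so tissue and slide range cannot be told apart.

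As a group, the Pat clones lay off the array median on most arrays, and the side changed between the arrays in 8 of 11 pairs. The 3 pairs on 1 side were Fayoumi cecum and Broiler cecum at 2 h and Fayoumi cecum at 16 h. In spleen at 2 h their median centred log2 ratio was 0.18 and -0.63 on the first and replicate array of Leghorn. It was 0.21 and -0.49 in Fayoumi spleen at 2 h, and 0.20 and -0.61 in Broiler spleen at 2 h. The 3 lines thus gave the same order at 2 h, first array positive and replicate array negative.

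In spleen at 16 h the order was the opposite in each line. The medians were -0.17 and 0.12 in Leghorn, -0.24 and 0.33 in Fayoumi, and -0.07 and 0.54 in Broiler spleen at 16 h. The averages over the 2 arrays ran from -0.23 ± 0.57 in Leghorn spleen at 2 h to 0.23 ± 0.44 in Broiler spleen at 16 h (SD, n = 2). In all 6 spleen groups the range between the arrays spanned 0. With the replicate arrays turned, the averages at 2 h became 0.40 in Leghorn, 0.35 in Fayoumi and 0.40 in Broiler spleen, and those at 16 h became -0.14, -0.29 and -0.31.

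In cecum the Pat median at 2 h was -0.03 and 0.83 in Leghorn, -0.48 and -0.17 in Fayoumi, and -0.30 and -0.36 in Broiler. Fayoumi and Broiler cecum at 2 h were the only pairs below 0 on both arrays, with averages of -0.33 ± 0.22 and -0.33 ± 0.04 (SD, n = 2 each). At 16 h the medians were -0.13 and 0.70 in Leghorn and 0.01 and 0.86 in Fayoumi, with 0.02 on the 1 Broiler array. Fayoumi cecum at 16 h was the only pair above 0 on both arrays, and its first array lay almost at 0. Turned in the same way, the averages at 2 h became -0.43 in Leghorn, -0.15 in Fayoumi and 0.03 in Broiler cecum, and at 16 h -0.42 in both Leghorn and Fayoumi cecum.

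**Figure D1:**
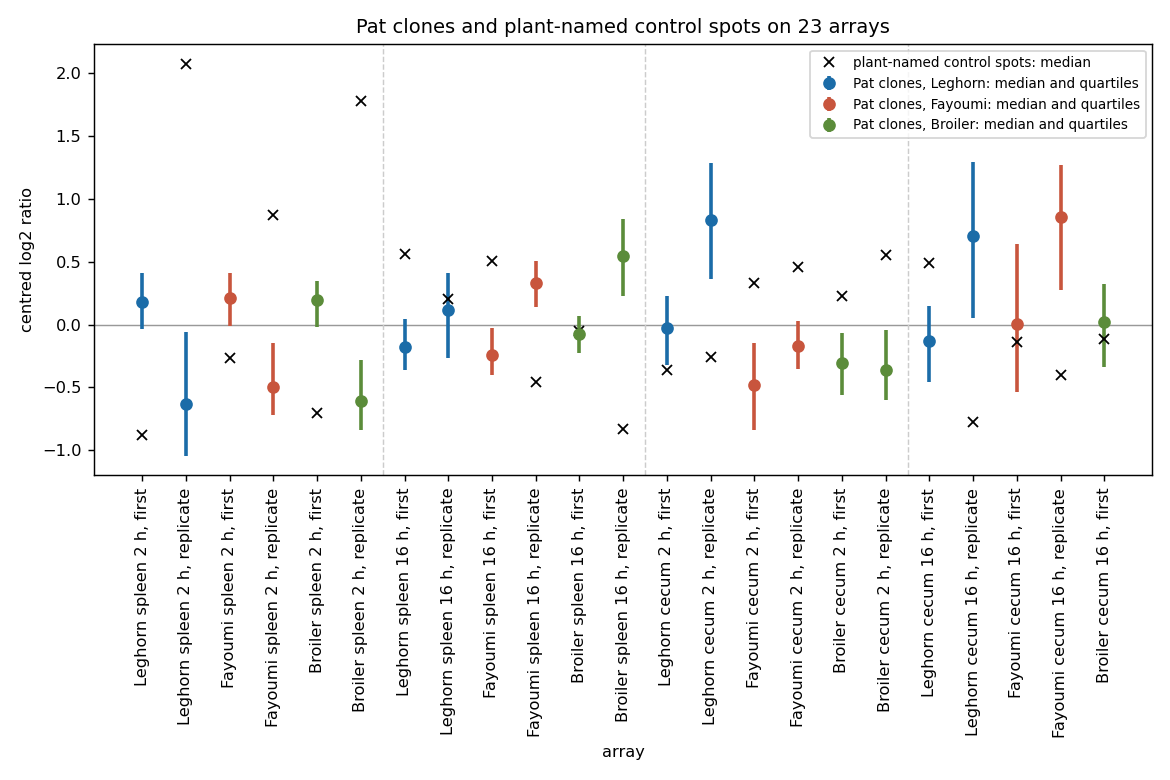
Median (points) and lower and upper quartile (bars) of the centred log2 ratios of the 1983 Pat clones on each of 23 arrays, by line, with the median of the 128 plant-named control spots as crosses. The Pat median is positive on 11 of 23 arrays, and the crosses lie on the other side of 0 from it on 20 of 23.

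The Pat clones and the plant-named control spots lay on opposite sides of 0. These are 128 spots named Cab, NAC1, PRKase and RUBISCO, and the file does not say what RNA was added for them. Their median had the opposite sign to the Pat median on 20 of 23 arrays. On the Leghorn spleen 2 h replicate array the Pat median was -0.63, against 2.08 over these spots, and on the Broiler spleen 2 h replicate array -0.61, against 1.78. On the Fayoumi cecum 16 h replicate array the Pat median was 0.86, against -0.40. The part of the control spots in the library's shift was not tested.

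The spread of the Pat clones was narrower than that of the remaining probes on all 12 spleen arrays and on 19 of 23 arrays in all. The SD was 0.86 on the Leghorn spleen 2 h replicate array, the widest spleen array, against 1.22 over the other probes. The 4 exceptions were all in cecum. They were the first arrays of Fayoumi at 16 h (0.89, against 0.69), Fayoumi at 2 h (0.51, against 0.48) and Broiler at 16 h (0.58, against 0.48), and the replicate array of Leghorn at 2 h (0.66, against 0.59). On the Fayoumi cecum 16 h replicate array the Pat clones were narrower, at 0.68, against 0.76.

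The share of Pat clones past a centred log2 ratio of 1 in size was above that of all probes on 9 of 23 arrays, 7 of the 11 cecum arrays and 2 of the 12 spleen arrays, and below it on the others. It was 39.6% on the Leghorn cecum 2 h replicate array, against 12.4% of all probes. It was 37.7% on the Leghorn cecum 16 h replicate array, against 27.6%, and 40.6% on the Fayoumi cecum 16 h replicate array, against 20.6%. These are also the 3 arrays with the highest Pat medians, at 0.83, 0.70 and 0.86. On first arrays of Fayoumi cecum it was 15.5% at 2 h, against 5.14%, and 24.9% at 16 h, against 13.2%. On the Broiler spleen 16 h first array 6 clones (0.303%) passed it, against 0.275% of all probes.

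Within a pair of arrays the order of the Pat clones was not kept in general, and the correlation between the arrays was negative in 5 of 11 pairs. The correlation between the first and the replicate array over 1983 clones ran from -0.33 in Fayoumi spleen at 2 h (-0.51 over all probes) to 0.34 in Fayoumi cecum at 16 h (0.54 over all probes). It was 0.29 in Leghorn spleen at 2 h and 0.30 in Leghorn spleen at 16 h, where it was -0.40 and 0.08 over all probes. These are correlations across clones, which share array, plate and printing, and clones are not independent replicates. Clones with 1 sign on both arrays made up 70.1% in Broiler cecum at 2 h (64.2% of all probes) and 68.8% in Fayoumi cecum at 2 h (60.4%), most of them negative (1270 and 1226 clones, which is 64.0% and 61.8%, against 32.1% and 30.2% of all probes). After turning the replicate arrays, 326 and 425 clones were negative on both, against 17.9% and 19.8% of all probes. In Fayoumi spleen at 16 h clones with 1 sign made up 21.0%, against 24.3% of all probes.

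The comparison of each group against 0 asked which clones departed from the array median. It was fitted with limma over all 15609 probes and all 23 arrays, with p-values adjusted by Benjamini-Hochberg over all probes within a contrast and a threshold of 0.05. The spread of a probe was estimated over all 12 groups together. Pairs whose arrays opposed each other entered it, and the 1 array of Broiler cecum at 16 h added nothing to it. Pat clones passed in 2 of the 12 groups, 15 in Leghorn spleen at 2 h and 76 in Fayoumi cecum at 16 h, and all 91 had positive ratios on both arrays. In the other 10 groups 0 Pat clones passed in limma's test. Of all probes, 3 (0.0192%) passed in Leghorn cecum at 16 h and 0 in the rest of these groups. At an unadjusted p below 0.05 there were between 4 Pat clones (Fayoumi spleen 16 h) and 191 (Leghorn cecum 16 h). Leghorn cecum at 16 h had 125 Pat clones past the threshold without its first array (6.30%, against 4.48% of all probes). For the group mean of a clone, the 95% interval reached to each side by 0.94 log2 units (2 arrays) or 1.32 (1 array). Both widths are medians over the Pat clones, taken for each clone by itself and before the Benjamini-Hochberg step. At these widths, smaller departures could not be told from 0 even without that step. Passing the threshold took more. The lowest means that passed were 1.96 in Leghorn spleen at 2 h and 1.29 in Fayoumi cecum at 16 h. Departures larger than the widths could thus also go uncalled.

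Before adjustment, the share of Pat clones with a limma p below 0.05 in spleen at 2 h was 7.11% in Leghorn (6.96% of all probes), 0.303% in Fayoumi (0.666%) and 2.42% in Broiler (2.26%). In spleen at 16 h the 3 shares were 2.98% in Leghorn (3.52%), 0.202% in Fayoumi (0.179%) and 0.656% in Broiler (0.404%). The spleen shares lay on both sides of those of all probes. Those of cecum were 8.88% in Leghorn (4.34%), 3.33% in Fayoumi (2.22%) and 2.27% in Broiler (2.96%) at 2 h, and 9.63% in Leghorn (6.75%), 21.9% in Fayoumi (15.5%) and 2.87% in Broiler (1.92%) at 16 h.

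In Leghorn spleen at 2 h the 15 clones were 0.756% of the Pat clones, where 0.263% of all probes passed and 0.25% passed with positive ratios. Their mean centred log2 ratios ran from 1.96 to 4.23, with a median of 2.55. Values ran from 1.88 to 5.18 on the first array and from 1.56 to 3.53 on the replicate array. The median over all Pat clones was 0.18 and -0.63 on these arrays. The 15 clones were picked by their ratios on these same arrays, so their distance from that median was fixed by the choice. Over the whole library, 152 Pat clones (7.67%, against 5.22% of all probes) had both Leghorn arrays above the 4 spleen arrays of Fayoumi and Broiler at 2 h, and 44 (2.22%, against 4.31%) below them. Turned replicate arrays gave 58 that lay above (2.93%, against 4.9%) and 73 below (3.68%, against 5.21%).

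Pat_5C3 (plate 5, row C, column 3) had the highest mean of the 15. Its centred log2 ratio was 5.18 and 3.27 on the Leghorn spleen 2 h arrays. On the spleen arrays of the other lines at 2 h it was 0.44 and 0.16 in Fayoumi and -0.40 and -0.02 in Broiler. The Leghorn arrays thus stood apart from both other lines, and the mean departed from 0 at 4.23 ± 1.35 (SD, n = 2; limma adjusted p = 0.00133). At 16 h the same clone gave 1.32 and 2.53 in Leghorn spleen, against 1.05 and 0.22 in Fayoumi and 0.33 and 0.53 in Broiler. In cecum its values fell on both sides of 0 in Leghorn, -0.65 and 1.09 at 2 h, and were negative on both Leghorn arrays at 16 h, -0.27 and -0.77. Of the 1983 clones it had the smallest p in the F-test of the 3 lines in spleen at 2 h, which it did not pass (limma adjusted p = 0.0796).

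Pat-19_d1 had the closest pair of values among the 4 clones with the smallest p. It gave 2.57 and 2.10 in Leghorn spleen at 2 h, against 0.24 and 0.74 in Fayoumi and 0.13 and 0.33 in Broiler (mean in Leghorn 2.34 ± 0.33, SD, n = 2; limma adjusted p = 0.00211). It was positive on all 6 spleen arrays at 2 h, and highest on the 2 Leghorn arrays. Pat_5F8 gave 3.26 and 2.06 in Leghorn spleen at 2 h, against 0.37 and 0.40 in Fayoumi and -0.10 and 0.61 in Broiler (limma adjusted p = 0.00582). Pat-22_g6 gave 3.19 and 1.91 in Leghorn spleen at 2 h, against 0.76 and 0.16 in Fayoumi and -0.02 and 0.41 in Broiler (limma adjusted p = 0.00971). These p-values are for the mean of Leghorn spleen at 2 h against 0, and none is for a difference between lines. By 16 h Pat_5F8 was at 0.01 and 0.96 and Pat-22_g6 at 0.45 and -0.07 in Leghorn spleen. For these 2 clones the 16 h arrays of Leghorn overlapped those of the other lines.

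The 15 clones came from 9 plates, with 11 on Pat_ plates and 4 on Pat- plates. Plate 5 held 4 of them and plate 4 held 3. Across the other groups their medians lay near 0 in Fayoumi spleen at 2 h (0.17 and 0.16) and Broiler spleen at 2 h (-0.02 and 0.02). In Leghorn spleen at 16 h the medians were 0.45 and 0.58. There 9 of the 15 were positive on both arrays, against 18.9% of the whole library and 24.25% of all probes. In cecum at 2 h, 10 of the 15 were negative on both Fayoumi arrays and 11 on both Broiler arrays, where 61.8% and 64.0% of the whole library were.

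None of the 15 calls held once the replicate arrays were turned. All 15 were positive on both arrays, so the turn set those arrays against each other. The calls thus rest on the deposited signs. With the turn 19 other Pat clones passed, 2 with positive and 17 with negative ratios, where 11.5% of all probes passed. None held after scaling all arrays to 1 spread, and 3 Pat clones passed with each tissue fitted alone (0.0384% of all probes). Without the first Leghorn spleen 2 h array 38 Pat clones passed (1.92%, against 4.41% of all probes), 14 positive and 24 negative. Without the replicate array 5 passed (0.252%, against 0.0513%). Leaving out either array of Fayoumi spleen 16 h, Broiler spleen 16 h or Fayoumi cecum 2 h left 7 (0.353%, against 0.128%, 0.135% and 0.135% of all probes). Leaving out either array of Broiler cecum 2 h left 9 (0.454%, against 0.192%). Pat_5C3, Pat-19_d1, Pat_5F8 and Pat-22_g6 passed in all 23 fits that left out 1 array.

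**Figure D2:**
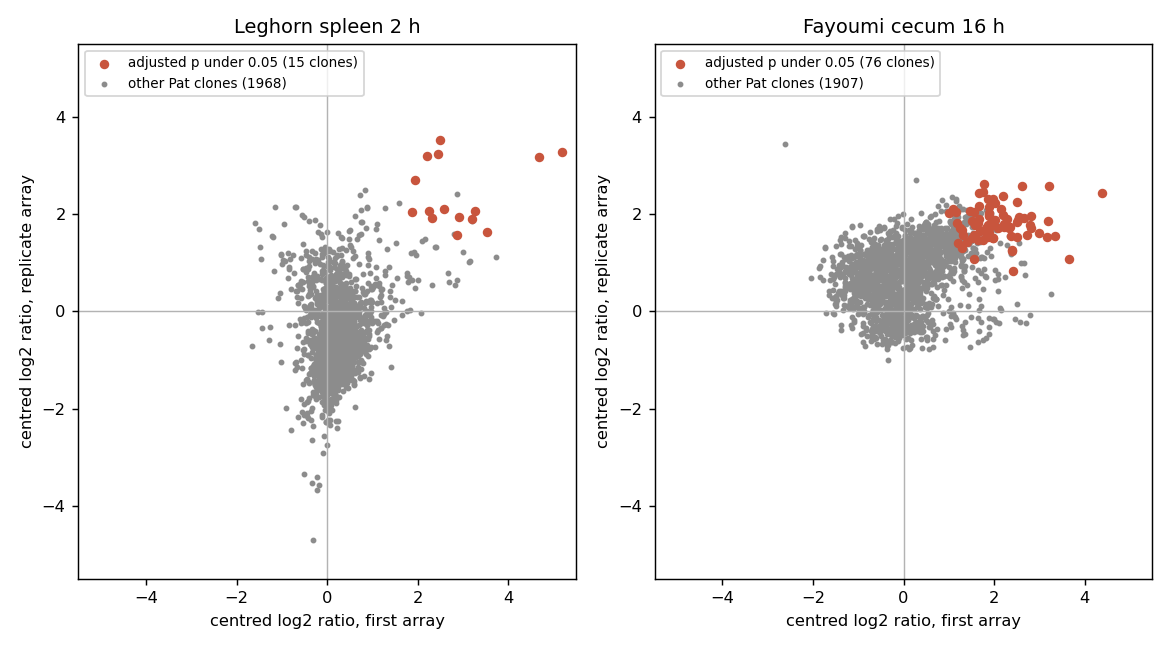
Centred log2 ratio of each Pat clone on the first (horizontal) and the replicate array (vertical) of Leghorn spleen 2 h and Fayoumi cecum 16 h, with the clones past the threshold in red. The red clones were picked by the values drawn. The 15 of Leghorn spleen lie in the upper right, while the replicate values of the library are mostly negative there. The 76 red clones of Fayoumi cecum lie at the edge of the main cloud.

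In Fayoumi cecum at 16 h the 76 clones were 3.83% of the Pat clones, where 3.2% of all probes passed, and 3.2% passed with positive ratios. The share was thus near that of the table as a whole. Their means ran from 1.29 to 3.41 with a median of 1.92, and their medians were 1.91 and 1.79 on the first and replicate array. They came from 20 of the 21 plates, 48 clones from Pat_ plates (3.85%) and 28 from Pat- plates (3.81%).

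Pat_10F9 had the smallest p, with 2.02 and 2.23 in Fayoumi cecum at 16 h, against -0.06 and 0.80 in Leghorn and -0.31 on the 1 Broiler array. Its mean in Fayoumi cecum at 16 h was 2.13 ± 0.15 (SD, n = 2, limma adjusted p = 0.00898 against 0). At 2 h it gave -0.80 and -0.42 in Fayoumi cecum, below both Fayoumi arrays at 16 h. The clone was picked by its ratios on those 16 h arrays, which favoured this order, and the p-value is not for a difference between times. Pat_10E6 gave 2.81 and 1.96 in Fayoumi cecum at 16 h (limma adjusted p = 0.0164 against 0). In Leghorn cecum at 16 h it gave 1.90 on the replicate array and -0.36 on the first array. The Fayoumi and Leghorn arrays of Pat_10E6 therefore nearly met, while the Broiler array stood at -0.90.

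Pat-19_g11 gave 2.38 and 1.54 in Fayoumi cecum at 16 h, against -0.51 and 0.55 in Leghorn and -0.35 in Broiler (limma adjusted p = 0.0192). Pat_13C10 gave 1.88 and 1.60, against -0.55 and 0.46 in Leghorn and -0.28 in Broiler (limma adjusted p = 0.0192). Both p-values are for the mean of Fayoumi cecum at 16 h against 0, not for a difference between lines. For both clones the Fayoumi arrays lay above the other 3 arrays of cecum at 16 h, and in spleen at 2 h both Broiler arrays were near -1 (-1.12 and -1.13 for Pat-19_g11, -1.18 and -1.0 for Pat_13C10). Over the whole library, 209 Pat clones (10.5%, against 11.6% of all probes) had both Fayoumi arrays above the 3 arrays of the other lines at 16 h, and 76 (3.83%, against 6.47%) below them. After the turn of the replicate arrays 60 lay above (3.03%, against 5.7%) and 349 below (17.6%, against 9.07%).

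In the other groups the direction of the 76 clones differed from group to group. In Leghorn cecum at 16 h their medians were -0.38 and 1.16 (-0.13 and 0.70 over the library), so only the replicate array was high. On the Broiler array their median was -0.09 (0.02 over the library). In Leghorn cecum at 2 h 51 of the 76 were positive on both arrays, against 41.6% of the library and 27.5% of all probes. In Fayoumi cecum at 2 h 39 were negative on both arrays, against 61.8% of the library and 30.2% of all probes. In Broiler cecum at 2 h 46 were negative on both, against 64.0% and 32.1%. In Broiler spleen at 16 h 46 were positive on both arrays and 1 was negative, against 30.8% and 6.61% of the library. Of all probes, 20.9% were positive there and 20.9% negative. Over both arrays, the average Pat median of the whole library was positive in Leghorn cecum at 2 h and Broiler spleen at 16 h and negative in Fayoumi and Broiler cecum at 2 h. In spleen at 2 h the medians of the 76 clones were positive on each first array (0.10 to 0.12) and negative on each replicate array, at -0.93 in Leghorn, -0.62 in Fayoumi and -0.82 in Broiler. The whole library had the same order there, with 0.18 and -0.63 in Leghorn, 0.21 and -0.49 in Fayoumi and 0.20 and -0.61 in Broiler.

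The 76 calls needed both Fayoumi arrays: with 1 of them left out 0 Pat clones passed, and 0 passed once the replicate arrays were turned or with values as deposited, when the 2 array medians of -1.04 and 0.56 were not removed. All 76 were positive on both Fayoumi arrays, so the turn set these arrays against each other, and the calls rest on the deposited signs. After scaling all arrays to 1 spread all 76 were kept among 143, where 5.54% of all probes passed. With the replicate block within each tissue 46 were kept, where 2% of all probes passed. Leaving out either Leghorn cecum 16 h array let 177 Pat clones pass (8.93%, against 6.91% of all probes), and either Leghorn spleen 2 h array 125 (6.30%, against 5.08%). Leaving out either array of Leghorn spleen 16 h left 47 (2.37%, against 2.2%) and of Broiler spleen 16 h 49 (2.47%, against 2.32%). For Fayoumi cecum 2 h it left 41 (2.07%, against 1.88%) and for Broiler cecum 2 h 46 (2.32%, against 2.01%). With the row medians evened out, a setting chosen after seeing the data, 117 passed, where 4.43% of all probes did.

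The mean of the 3 lines asked which clones departed from 0 in each tissue and time. In limma's test 0 Pat clones and 0 of all probes passed in any of the 4, although some Pat clones had an unadjusted p below 0.05. These were 87 at 2 h (4.39%, against 4.45% of all probes) and 30 at 16 h (1.51%, against 1.08%) in spleen. In cecum they were 36 at 2 h (1.82%, against 1.96%) and 273 at 16 h (13.8%, against 8.81%). The median of the 1983 mean ratios in spleen was -0.17 at 2 h (0.02 over all probes) and 0.07 at 16 h (0.00). For cecum it was -0.09 at 2 h (0.03) and 0.23 at 16 h (0.02). With the replicate arrays turned, these medians were 0.39 and -0.24 in spleen and -0.21 and -0.27 in cecum, at 2 h and 16 h. In cecum at 16 h 133 Pat clones passed without the first Leghorn array (6.71%, against 4.76% of all probes) and 64 without the Broiler array (3.23%, against 3.04%). Turning the replicate arrays made 166 Pat clones pass in spleen at 2 h, 128 positive and 38 negative, where 24.1% of all probes passed.

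Clones with 1 sign on every array of a tissue and time were few. In spleen at 2 h 7 Pat clones were positive and 30 negative on all 6 arrays (0.353% and 1.51%), against 0.794% and 0.826% of all probes. In spleen at 16 h 31 were positive and 5 negative (1.56% and 0.252%), against 0.942% and 1.16%. In cecum at 2 h 8 were positive and 34 negative (0.403% and 1.72%), against 1.31% and 1.29%. In cecum at 16 h 111 were positive and 17 negative on all 5 arrays (5.60% and 0.857%), against 3.38% and 2.56%. In each tissue and time the larger side had the sign of the median of the mean ratios given above. The Pat medians of single arrays lay on both sides of 0 in each, and the link was not tested. With the replicate arrays turned the counts became 732 and 58 in spleen at 2 h (17.4% and 20.5% of all probes) and 18 and 420 in spleen at 16 h (11% and 9.71%), so the larger side changed. In cecum they became 1 and 32 at 2 h (1.36% and 0.846%) and 11 and 195 at 16 h (2.94% and 3.23%).

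Among these clones Pat-19_d1 and Pat_8E6 led the positive side of spleen at 2 h. Pat_8E6 gave 2.15 and 1.49 in Leghorn, 0.76 and 0.87 in Fayoumi and 0.21 and 0.39 in Broiler. The 3 lines did not overlap in Pat_8E6, with Leghorn highest and Broiler lowest, but its mean of 0.98 did not pass (limma adjusted p = 0.778). On the negative side Pat_5H2 ran from -1.48 to -0.07 with a mean of -0.95 (limma adjusted p = 0.778). Pat_13C2 ran from -1.16 to -0.13 with a mean of -0.65 (limma adjusted p = 0.778).

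In spleen at 16 h Pat_4A2 and Pat_8C10 had the smallest p among clones positive on all 6 arrays, with means of 2.22 (limma adjusted p = 0.217) and 1.92 (limma adjusted p = 0.232). Both passed after scaling all arrays to 1 spread (limma adjusted p = 0.0195 and 0.0149), where 0.032% of all probes passed. The negative clones Pat-16_d6 and Pat-18_e8 had means of -0.45 and -0.36 there.

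In cecum at 2 h the leading clones had small ratios: means of 0.51 for Pat-22_f5 and 0.29 for Pat-18_a8, and -0.83 for Pat-21_e12 and -0.46 for Pat-20_e5, all with a limma adjusted p of 1.00. Pat-21_e12 gave -0.36 and -0.57 in Leghorn, -0.85 and -0.38 in Fayoumi and -1.35 and -1.45 in Broiler cecum at 2 h. In cecum at 16 h Pat-16_h3 gave 0.22 and 1.76 in Leghorn, 2.69 and 0.74 in Fayoumi and 1.97 in Broiler, with a mean of 1.56 (limma adjusted p = 0.187). Pat-18_b10 gave 0.36 and 2.64 in Leghorn, 2.28 and 1.89 in Fayoumi and 1.02 in Broiler, with a mean of 1.53 (limma adjusted p = 0.187). In both clones the 2 Leghorn arrays differed by more than 1.5, and the lines overlapped. The negative clones Pat-22_e2 and Pat-21_a9 averaged -0.63 and -0.39, and neither passed.

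The F-test of the 3 lines asked whether the lines differed within a tissue and time. In limma's test 0 Pat clones and 0 of all probes passed in any of the 4. At an unadjusted p below 0.05 spleen had 54 Pat clones at 2 h (2.72%, against 2.13% of all probes) and 15 at 16 h (0.756%, against 0.698%). Cecum had 116 at 2 h (5.85%, against 3.14%) and 150 at 16 h (7.56%, against 6.69%). The F-test passed for 5 Pat clones in cecum at 16 h without the replicate Leghorn array (0.252%, against 0.288% of all probes), and for 1 in spleen at 2 h without the first Leghorn array (0.0504%, against 0.00641%). Pat-19_f8 had the smallest p in spleen at 16 h. It gave -2.59 and -2.56 in Leghorn, against -0.66 and 1.26 in Fayoumi and 0.23 and 2.02 in Broiler. Its Leghorn arrays nearly coincided and lay below the other 4, but the test was not passed after adjustment (limma adjusted p = 1.00).

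In cecum at 2 h Pat_14c12 led with 0.79 and 1.04 in Leghorn, against -1.34 and -0.45 in Fayoumi and -1.23 and -0.79 in Broiler (limma adjusted p = 0.999). It was also 1 of the clones high in Leghorn spleen at 2 h, with 1.88 and 2.04. In cecum at 16 h Pat_7D11 led with 3.61 on the 1 Broiler array, against -0.17 and 0.15 in Leghorn and 1.31 and -0.48 in Fayoumi (limma adjusted p = 0.369).

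In cecum at 2 h the Pat clones that set Leghorn apart from the other lines mostly had it above them. Over all probes the 2 sides were near equal. Most Pat clones did not set Leghorn apart. Both Leghorn arrays lay above all 4 arrays of Fayoumi and Broiler in 730 Pat clones (36.8%), against 17.8% of all probes, and below them in 36 (1.82%), against 19.1%. The Pat medians were -0.03 and 0.83 in Leghorn, against -0.48 and -0.17 in Fayoumi and -0.30 and -0.36 in Broiler. The part of this shift of the whole library in the count was not tested. With the replicate arrays turned 27 clones lay above (1.36%, against 5.03% of all probes) and 99 below (4.99%, against 3.92%). In spleen at 16 h the split ran the other way, with 48 Pat clones above (2.42%, against 4.77%) and 199 below (10.04%, against 6.3%). With the replicate arrays turned it became 181 above and 37 below (5.19% and 4.98% of all probes).

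The difference between 16 h and 2 h, averaged over the lines, was tested in each tissue. In limma's test 0 Pat clones and 0 of all probes passed. At an unadjusted p below 0.05 there were 51 Pat clones in spleen (2.57%, against 2.9% of all probes) and 178 in cecum (8.98%, against 6.27%). Without the first Leghorn cecum 16 h array 3 passed in cecum (0.151%, against 0.103%). The median difference over the Pat clones was 0.24 in spleen (-0.04 over all probes) and 0.34 in cecum (0.01 over all probes), and with the replicate arrays turned it was -0.64 and -0.05. Turning the replicate arrays made 410 Pat clones pass in spleen, 35 positive and 375 negative, where 30.5% of all probes passed. Pat_12D1 had the smallest p in cecum. It gave -0.10 and 1.20 in Leghorn, 1.66 and -0.40 in Fayoumi and 2.99 in Broiler at 16 h, against 0.39 and 0.41 in Leghorn, -0.48 and -0.07 in Fayoumi and -0.94 and -1.11 in Broiler at 2 h. The difference was 1.69 ± 0.40 (SE of the fit, limma adjusted p = 0.745), with the 2 times overlapping in Leghorn and Fayoumi. Pat-16_c11 led in spleen with a difference of 0.98 (limma adjusted p = 0.893).

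Pat_4A2 lay farthest from 0 over the 23 arrays. The root mean square of its centred log2 ratios, which counts a steady offset as well as spread, was 2.30, against a median of 0.63 over the Pat clones and 0.58 over all probes. Pat_2A6 followed at 2.02 and Pat-19_c10 was the lowest at 0.24. The 2 leading clones differed in their means, 1.297 in Pat_4A2 and 0.05 in Pat_2A6. By the SD over the arrays Pat_2A6 was the most variable Pat clone at 2.07, with Pat_4A2 next at 1.94. Pat_2A6 had opposite extremes within pairs, with -2.66 and 2.78 in Fayoumi spleen at 16 h and -2.62 and 3.44 in Fayoumi cecum at 16 h.

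Pat_4A2, by contrast, was positive on all 8 Leghorn arrays. Its values in Leghorn spleen were 4.67 and 3.17 at 2 h and 4.60 and 3.18 at 16 h. Leghorn cecum gave 1.07 and 3.08 at 2 h and 2.73 and 4.76 at 16 h. Over the 8 Fayoumi arrays it ran from -1.05 to 1.81 with a median of 0.26. Over the 7 Broiler arrays it ran from -0.84 to 2.49 with a median of -0.34. The lowest Leghorn value, 1.07 on the first cecum 2 h array, lay within the range of both other lines, and the other 7 lay above both ranges.

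The pattern of Pat_4A2 by line was noticed in these values, and a comparison of lines over all tissues and times was then added. In the mean of the 4 Leghorn groups 3 Pat clones passed in limma's test, where 0.0384% of all probes passed (6 probes): Pat_4A2, Pat_8C10 and Pat-19_d1. Their means were 3.41 (limma adjusted p = 0.000135), 2.52 (limma adjusted p = 0.00112) and 1.00 (limma adjusted p = 0.0108). Scaling all arrays to 1 spread kept Pat_4A2 and Pat_8C10 (limma adjusted p = 0.000201 and 0.00203), where 0.032% of all probes passed. It lost Pat-19_d1 (limma adjusted p = 0.126). Leghorn spleen at 2 h is 1 of the 4 groups, and Pat_4A2 and Pat-19_d1 had already passed there. The arrays of that group gave 4.67 and 3.17 in Pat_4A2 and 2.57 and 2.10 in Pat-19_d1. Without the first Leghorn cecum 2 h array the count was 11 (0.555%, against 0.135% of all probes), without the first Leghorn cecum 16 h array 6 (0.303%, against 0.154%), and without the replicate Leghorn spleen 2 h array 5 (0.252%, against 0.0577%). In the means of the Fayoumi and of the Broiler groups 0 Pat clones and 0 of all probes passed. At an unadjusted p below 0.05 there were 22 and 21 Pat clones (1.3% and 1.15% of all probes). In the difference of Leghorn from the mean of the other lines 1 Pat clone passed, where 0.0192% of all probes passed (3 probes). The clone was Pat_4A2, with a difference of 3.27 ± 0.44 (SE of the fit, limma adjusted p = 0.00767). In the same difference for Fayoumi and for Broiler 0 Pat clones and 0 of all probes passed. At an unadjusted p below 0.05 there were 38 and 32 Pat clones (1.41% and 1.7% of all probes). Since these comparisons of lines were chosen after the values of Pat_4A2 were seen, their p-values are not independent tests.

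Pat_8C10 was positive on 7 of 8 Leghorn arrays. Leghorn spleen gave 2.88 and 2.42 at 2 h and 2.85 and 2.43 at 16 h, and Leghorn cecum gave -0.29 and 3.77 at 2 h and 3.07 and 3.05 at 16 h. It ran from -0.75 to 1.15 in Fayoumi and from -0.22 to 3.16 in Broiler, where spleen at 16 h gave 1.33 and 3.16. The Broiler spleen arrays at 16 h thus reached into the Leghorn range. Pat-19_d1 was positive on 7 of 8 Leghorn arrays, with 0.85 and 1.14 on the 16 h spleen arrays. Leghorn cecum gave -0.17 and 1.00 at 2 h and 0.11 and 0.39 at 16 h. Its Leghorn values in cecum at 16 h overlapped the Broiler value of 0.25.

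**Figure D3:**
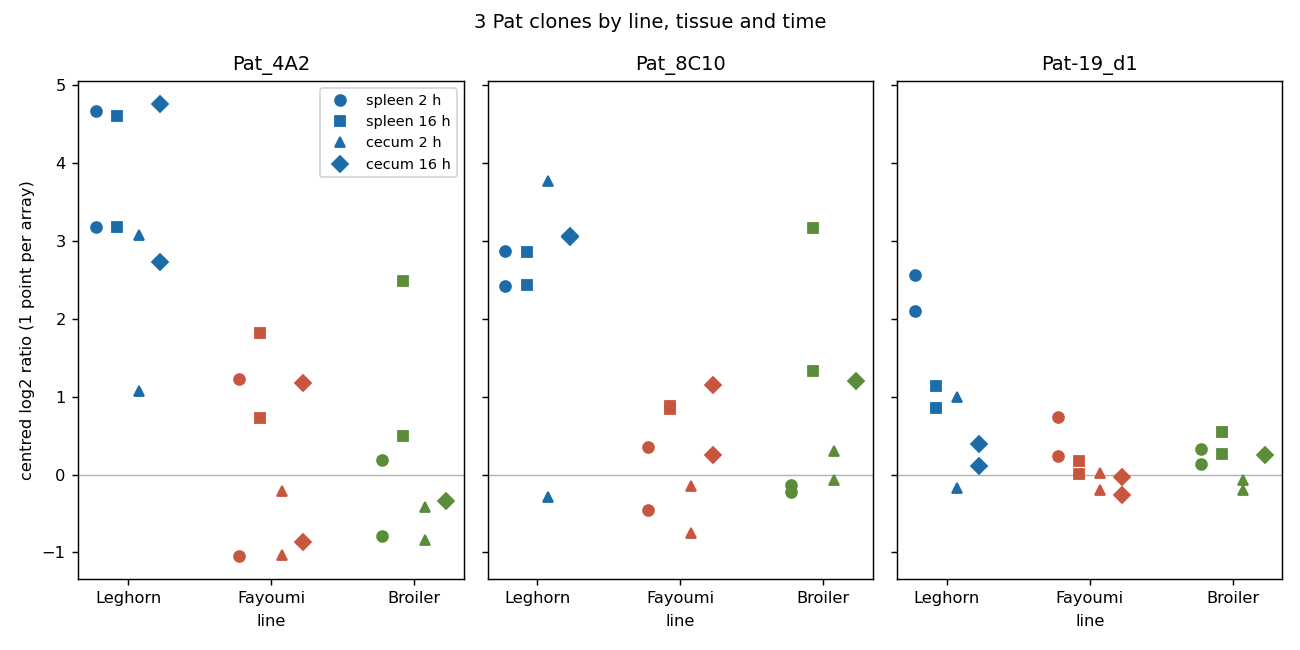
Centred log2 ratios of Pat_4A2, Pat_8C10 and Pat-19_d1 on each array, by line (colour) and by tissue and time (symbol). The 8 Leghorn values of Pat_4A2 lie between 1.07 and 4.76, and those of Pat_8C10 and Pat-19_d1 are positive on 7 of 8 arrays.

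The difference of Pat_4A2 between Leghorn and the other lines was called after scaling all arrays to 1 spread (limma adjusted p = 0.0166), with the row medians evened out (0.00172) and with the replicate block within each tissue (0.00735). It was lost with the replicate arrays turned, where the difference was 0.05 (limma adjusted p = 1.00), and without the first Leghorn spleen 16 h array or the replicate Leghorn cecum 16 h array. Without the first Leghorn cecum 2 h array 2 Pat clones passed (0.101%, against 0.0256% of all probes). Turning the signs sets the high first arrays of a group against its high replicate arrays, so the means of the 3 clones over the Leghorn groups became -0.14, -0.40 and -0.16.

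Over all arrays of a line, 14 Pat clones were positive on all 8 Leghorn arrays and 1 was negative, where 0.256% and 0.218% of all probes were (40 and 34 probes). In Fayoumi 2 were positive and 1 negative on all 8 arrays, against 0.128% and 0.205% of all probes. In Broiler 1 was positive and 10 negative on all 7 arrays, against 0.615% and 0.397%. The 14 are 0.706% of the library. Turning the replicate arrays left 1 positive and 3 negative clones in Leghorn (0.128% and 0.122% of all probes), 0 and 1 in Fayoumi (0.0256% and 0.0577%), and 0 and 11 in Broiler (0.122% and 0.288%).

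Wells next to Pat_4A2 behaved unlike it and like each other. Pat_4A1 and Pat_4A3, on both sides of it in row A of plate 4, had the same sign on all 23 arrays and differed by a root mean square of 0.18. Both were low on the Leghorn spleen 2 h replicate array, at -3.66 and -3.56, where Pat_4A2 was at 3.17. Among the 333 Pat clones with a root mean square of at least 0.8, the median distance between 2 clones was 0.90, and Pat_14f11 with Pat_3B9 was the closest pair at 0.18. Of the 10 closest pairs, 3 lay on the same plate. The identifiers do not say whether such pairs hold the same insert.

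Values differed with the row letter and the plate number in the identifiers. Row letters of the Pat clones fell into 4 pairs, A with E, B with F, C with G and D with H. Medians of rows 4 letters apart differed by a mean of 0.04 over the 23 arrays, against 0.11 to 0.29 for rows any other number of letters apart. On the Fayoumi cecum 16 h replicate array the medians were 1.16 and 1.07 in rows A and E, 0.99 and 1.01 in B and F, 0.83 and 0.80 in C and G, and 0.25 and 0.27 in D and H. On that array row letter took up 17.8% of the variance of the Pat clones, the highest share of the 23 arrays, and on the Leghorn cecum 16 h first array 17.7%. The lowest share was 0.747%, on the Fayoumi cecum 2 h first array.

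The sign of this row pattern differed between arrays. Rows A and E were the highest on the Fayoumi cecum 16 h and Leghorn cecum 16 h replicate arrays and the lowest on the first Leghorn and Broiler cecum 16 h arrays. The 1728 DT40subNB clones with a row letter had the same period, with a mean difference of 0.05 at 4 letters apart. The 11447 C00041 probes, whose letters run over 16 rows, had theirs at 8 letters apart, at 0.03. The cause of the row pattern was not tested.

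**Figure D4:**
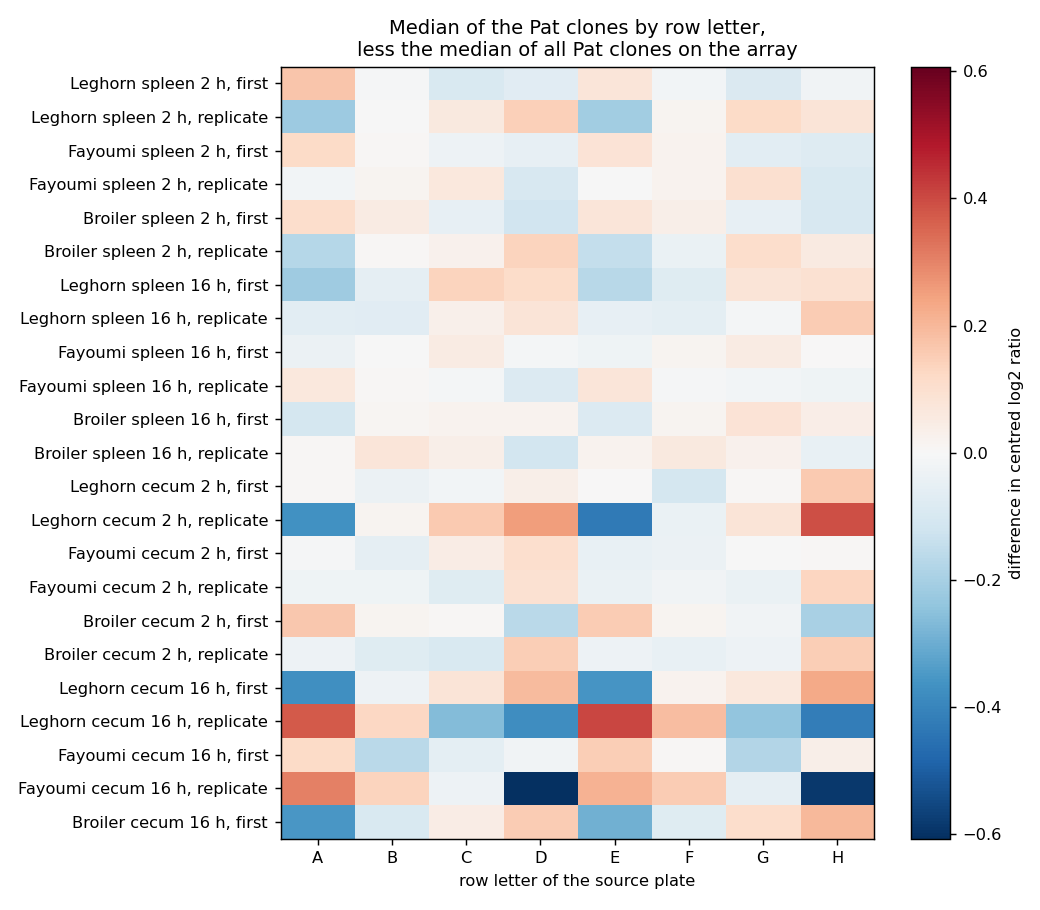
Median centred log2 ratio of the Pat clones of each row letter (A to H, across) on each of 23 arrays (down), less the median of all Pat clones on that array. Columns 4 letters apart have near-equal colours within an array, with a mean difference of 0.04.

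Plates differed as well. Plate took up between 1.86% (Broiler spleen 16 h first array) and 13.0% (Broiler spleen 16 h replicate array) of the variance of the Pat clones. The median of the clones on Pat_ plates lay farther from 0 than that on Pat- plates on 21 of 23 arrays, and both had the same sign on 21 of 23. On the Broiler spleen 16 h replicate array it was 0.64 on Pat_ plates and 0.31 on Pat- plates. On the Leghorn cecum 2 h replicate array it was 0.93 and 0.62, and on the Fayoumi cecum 2 h first array -0.58 and -0.30. The shift of the library described above was thus larger in the Pat_ plates, and the file does not say how the 2 sets of plates differ.

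**Figure D5:**
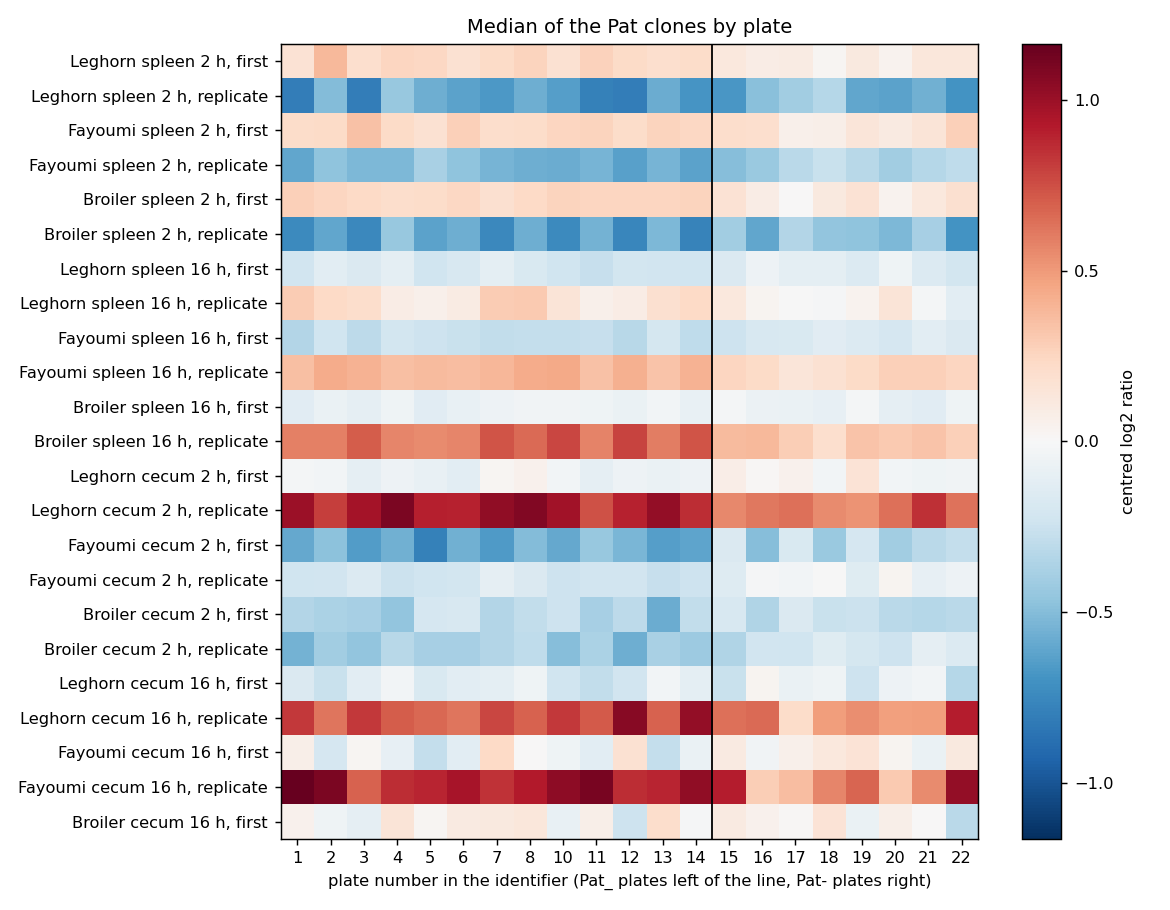
Median centred log2 ratio of the Pat clones of each of 21 plates (across) on each of 23 arrays (down), with Pat_ plates left of the line and Pat- plates right of it. Plates of an array mostly share a sign. The median of all clones left of the line lies farther from 0 than that of all clones right of it on 21 of 23 arrays. Single plates overlap, as on the Leghorn spleen 2 h replicate array (-0.44 on plate 4, left, and -0.70 on plate 22, right).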

How the data were processed

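RNA of spleen and cecum from challenged and unchallenged chicks was compared on spotted 2-colour arrays. The authors deposited a single number for each spot and array, with values on both sides of 0. It was taken as a log2 ratio between channels, with base and direction unstated. Per the labels, each array held 3 challenged and 3 unchallenged birds. Scanning, background correction and any normalization by the authors are not given in the sources. In the replicate column of Broiler cecum 16 h, the authors deposited a score of unknown meaning, nearly always 1 or the base-2 logarithm of 3, and it was left out.

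Each of the 23 arrays used was centred on the median of the 15609 probes that are not control spots (160 control spots). All 15609 probes entered a linear model with a mean for each of 12 groups, fitted in R 4.3.3 by lmFit and eBayes of limma 3.58.1, with 11 residual degrees of freedom. Tests were two-sided, and the Benjamini-Hochberg adjustment ran over all probes of a contrast at a threshold of 0.05. These values have no depth, and the number of arrays limits the precision. The model was run on simulated arrays with independent noise and known changes in spleen at 2 h. These lacked the opposed replicate arrays, library shifts and row pattern of the real ones, so they cannot show how the model performs here. Tables were handled in Python 3.11.15 with pandas 2.3.3.

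The members, the tests and the rule for named clones were chosen with earlier results of these data known. Of the clones that passed in a group and had 1 sign on its arrays, the rule took the 4 with the smallest p per direction. It took the 2 per direction with the smallest p in the mean of the lines and 1 sign on all arrays of a tissue and time, the 1 with the smallest p in each F-test and each difference between times, and the 2 largest and 1 smallest root mean square. Pat_8C10, Pat-19_d1 and Pat_4A2 in the comparison of lines, the wells beside Pat_4A2 and the closest pairs were named after their values were seen. Lists of cell type markers could not be read, since 0 identifiers matched a gene. Alternatives were turned signs, no centring, scaling, each tissue alone, a replicate block, evened row medians and each array left out.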

Additional observations from a re-analysis of the deposited data

Results flagged for a closer look

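The Pat median on the Leghorn cecum 2 h replicate array, 0.8317, stood apart from the other 5 arrays of cecum at 2 h. The gap to the next array was 0.655 of the whole range of the 6 arrays. The 6 arrays differ in line and in replicate title, and how often chance gives such a gap was not tested.

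In Fayoumi cecum the Pat median was 0.01 and 0.86 on the 2 arrays at 16 h and -0.48 and -0.17 on the 2 arrays at 2 h, a difference of 0.7576 between the averages. Both 16 h arrays were positive and both 2 h arrays negative. The difference was not tested. With the replicate arrays turned the average at 16 h became -0.42.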

How the results depend on the processing

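Of 28 counts of Pat clones past the threshold, turning the replicate arrays moved 7 by over 1.5 times, scaling the arrays 6, leaving out the centring 4, evening out the row medians 3 and the replicate block 1. Fitting each tissue alone moved 1 of 22. With replicate arrays turned, the count became 0 in Fayoumi cecum 16 h. It became 1 in Broiler spleen 2 h (0.0504%, against 3.23% of all probes) and 1 in Broiler cecum 16 h (0.0504%, against 0.00641%). In the mean of the lines in spleen at 2 h it became 166 (8.37%, against 24.1%). In 16 h against 2 h in spleen it became 410 (20.7%, against 30.5%). The counts were 0 in the mean of the Leghorn groups and 0 in Leghorn against the other lines. In Leghorn spleen 2 h 19 clones passed (0.958%, against 11.5% of all probes), none of the 15. With values as deposited the count was 0 in Fayoumi cecum 16 h. It was 1 in Leghorn spleen 16 h (0.0504%, against 0.0192% of all probes). The mean of the lines in spleen gave 1 at 2 h (0.0504%, against 0.0256%) and 1 at 16 h (0.0504%, against 0.0128%). With scaled arrays the count was 0 in Leghorn spleen 2 h and 2 in Leghorn spleen 16 h (0.101%, against 0.045% of all probes). It was 143 in Fayoumi cecum 16 h (7.21%, against 5.54%) and 9 in Broiler cecum 16 h (0.454%, against 0.0833%). The means of the lines at 16 h gave 2 in spleen (0.101%, against 0.032%) and 3 in cecum (0.151%, against 0.0192%). Each tissue fitted alone gave 3 in Leghorn spleen 2 h (0.151%, against 0.0384% of all probes). Evened row medians, a setting chosen after seeing the data, gave 117 in Fayoumi cecum 16 h (5.90%, against 4.43% of all probes). They gave 1 in Broiler cecum 16 h (0.0504%, against 0.00641%) and 1 in the F-test of spleen at 2 h (0.0504%, against 0.032%). All groups share 1 estimate of the spread of a probe, so turning arrays of 1 group also changes the spread used for the others. The cause of each change in a count was not tested.

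The replicate title is a word that the labels tie to no bird or day. Within each tissue every replicate array also has a higher slide number than every first array. Replicate title and slide order therefore cannot be told apart. The replicate block within each tissue gave 46 in Fayoumi cecum 16 h (2.32%, against 2% of all probes). It changed no other count of calls by over 1.5 times.

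Leaving out each array in turn gave 5 to 38 in Leghorn spleen 2 h, 0 to 177 in Fayoumi cecum 16 h, and 0 to 125 in Leghorn cecum 16 h (125 without its first array). It gave 0 to 133 in the mean of the lines in cecum at 16 h (133 without the first Leghorn array, 64 without the Broiler array), 0 to 5 in the F-test of cecum at 16 h, 0 to 3 in 16 h against 2 h in cecum, and 0 to 1 in Broiler cecum 16 h, Leghorn spleen 16 h, the mean of the lines in spleen at 16 h and the F-test of spleen at 2 h. It gave 2 to 11 in the mean of the Leghorn groups and 0 to 2 in Leghorn against the other lines. Where this left a group with 1 array, that array was assumed to vary like the other groups. Signal over background is not given, so the precision rests on the number of arrays.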

Other observations

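In the Broiler cecum 16 h replicate column, which entered no comparison, 1529 of the 1983 Pat clones (77.1%) had no value, against 37.8% of all rows. The share without a value was 73.8% of the 378 DKFZ426 clones, 54.9% of the 1798 DT40subNB clones and 27.4% of the 11447 C00041 probes. Of the Pat clones with a value, 259 had the value 1 and 195 the base-2 logarithm of 3.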
